A study of Mus musculus with 12 samples.

Results

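The mouse mitochondrial genome carries 37 genes, and all 37 had a row among the 53647 gene rows of the deposited expression table. They were found by mapping each row's Ensembl identifier to a gene symbol and keeping the symbols that start with mt-. They comprise 13 mRNAs, 2 rRNAs and 22 tRNAs, and these classes are described separately. The values are TPM, an abundance divided by transcript length and scaled to the same total in every library. The RNA came from whole mouse embryos at embryonic day 9.5 and was selected for poly(A) tails, starting from about 500 ng of total RNA and sequenced as paired reads of 75 bases. The 12 libraries form 6 groups of 2. In 3 groups the genotype label is p53 +/+ and in the others p53 -/-; they are called here labelled wild type and labelled knockout. Under each label 1 group was untreated, 1 was collected 1 h and 1 was collected 3 h after X-irradiation of the pregnant mice, with 30 Gy at 5 Gy per minute. The sources used here do not give the strain, the design of the p53 allele, or whether embryos were pooled. The labels number the libraries of a group 1 and 2 but do not say that these are separate embryos, so a p-value below reflects only how much these libraries scatter, which may be technical. TPM keeps no sequencing depth, so the number of reads behind a value is unknown.

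Mitochondrial DNA is a small circle inside the organelle that is transcribed from both strands into long precursors. The precursors are cut, largely at the tRNAs that lie between the other genes, into mRNAs, rRNAs and tRNAs. Every protein it encodes is a subunit of the respiratory chain or of ATP synthase, and the remaining subunits of these complexes, like all proteins that copy, transcribe and process mitochondrial DNA, are encoded in the nucleus. Pieces of mitochondrial DNA have also been inserted into nuclear chromosomes during evolution, and an mRNA-derived read can match such a nuclear copy as well as the gene itself.

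Some properties of the whole set of libraries touch the values below. Trp53, the gene that encodes p53, read 114, 211, 114, 66.8, 93.7 and 68.0 TPM in the labelled wild-type libraries (untreated 1 and 2, then 1 h and 3 h) and 265, 79.1, 250, 210, 242 and 220 TPM in the labelled knockout libraries in the same order. The transcript was therefore not lower under the knockout label taken as a whole. The untreated libraries numbered 2 differed from the rest of their label. Under wild type that library read 211 TPM and the others 66.8 to 114, and under knockout it read 79.1 TPM and the others 210 to 265. Each untreated group, the baseline of the comparisons over time, thus mixes a higher and a lower value. For these reasons genotype is given throughout as a label. The 1 h libraries numbered 2 stood apart under both labels: 18.4% and 18.5% of their TPM lay in cytosolic ribosomal protein genes, which in the other 10 libraries held 10.8% to 12.8%. Markers of the embryo's primitive red cells, heart, yolk sac and neural tube were detected in every library. In whole embryos, fewer cells of a type and less RNA per cell cannot be told apart.

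Of the 37 genes, 7 had near-identical copies on nuclear chromosome 1 that took large values of their own, and the sequences show why a 75-base read often cannot separate them. A search of annotated transcripts found 17 nuclear copies with at least 90% identity over at least 100 bases, of which 9 reached 1 TPM in at least 2 libraries. Gm28661 matches mt-Co2 over 681 of its 684 bases with no mismatch, Gm10925 matches mt-Atp6 over 678 of 681 with none, and Gm28437 matches mt-Co3 over 783 of 784 with none. Gm10222 matches mt-Nd4l over 294 of 297 bases with no mismatch and Gm28438 matches mt-Nd3 over 345 of 348 with 1. Gm28439 (876 of the 1378 bases of mt-Nd4, no mismatch) and Gm29216 (483 of the 1545 bases of mt-Co1, 1 mismatch) are partial copies. The stretch of mt-Co2 below, bases 452 to 526 of the transcript, is 1 read long; capitals mark the bases at which the more diverged copy Gm13341, from chromosome 2, differs. The second set shows the first 75 bases of mt-Nd3, with its only difference from Gm28438 in capitals. Sequences are from the GENCODE release M21 (GRCm38) transcripts.
mt-Co2: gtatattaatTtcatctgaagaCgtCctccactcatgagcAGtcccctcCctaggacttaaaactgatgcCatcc
Gm28661: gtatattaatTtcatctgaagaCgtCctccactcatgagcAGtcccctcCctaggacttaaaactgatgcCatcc
Gm13341: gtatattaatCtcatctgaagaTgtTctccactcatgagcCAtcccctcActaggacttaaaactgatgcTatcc
mt-Nd3: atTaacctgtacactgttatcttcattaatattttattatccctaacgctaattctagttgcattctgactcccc
Gm28438: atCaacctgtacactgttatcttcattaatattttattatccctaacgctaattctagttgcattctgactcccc
The mt-Co2 and Gm28661 lines are the same, and Gm13341 differs from both at 7 bases in this window. Their levels differed widely: Gm28661 read 3507 to 12856 TPM over the 12 libraries, whereas Gm13341 never exceeded 3.17 TPM. No source used here says how the authors' counting divided reads between identical sequences. Values of the 7 genes are therefore given as deposited and, only where stated, also with the TPM of their nuclear copies added.

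The 22 tRNAs, which carry amino acids to the mitochondrial ribosome, were listed at 0 in all 12 libraries. Their annotated lengths run from 59 to 75 bases, so none is longer than 1 read; 14 are encoded on the heavy strand and 8 on the light strand. The longest is the leucine tRNA mt-Tl1, shown here whole.
mt-Tl1: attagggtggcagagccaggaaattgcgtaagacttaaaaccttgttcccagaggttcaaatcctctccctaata
A value of 0 was not particular to these tRNAs. Of the other genes whose longest transcript has at most 75 bases, 780 of 780 were listed at 0 in every library, and of those with 76 to 100 bases 719 of 719. Above that length genes began to have values: 983 of 990 genes in the next length class were at 0 throughout, 892 of 942 genes in the class after it (up to 150 bases), and 37.4% of those longer than 300 bases. The data therefore give no level for the mitochondrial tRNAs.

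The 13 mRNAs took 4.58% to 8.42% of all TPM in a library. With their nuclear copies added they took 6.49% to 12.3%. All 13 passed the filter of at least 1 TPM in at least 2 libraries, as did both rRNAs, so 15 of the 37 genes were tested. The order of levels is per transcript length, and for genes with nuclear copies it depends on which rows are counted.

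Complex I, which takes electrons from NADH, has 7 mitochondrially encoded subunits. Over the 12 libraries mt-Nd1 had a median of 8154 TPM (4432 to 12134), mt-Nd2 of 4030 (1917 to 6050) and mt-Nd4 of 3836 (1734 to 6092). The next were mt-Nd6 with a median of 3010 TPM (913 to 5295) and mt-Nd5 with 2547 (1195 to 3945). The lowest mRNA rows of the genome were mt-Nd4l, median 433 TPM (181 to 1225), and mt-Nd3, median 399 TPM (161 to 1123). Their ranges overlap almost fully, so these neighbours in the order did not differ beyond the spread over libraries. With its copy added, mt-Nd4l read 2704 to 5868 TPM and mt-Nd3 1825 to 4223 TPM, both within the range of the mt-Nd4 row. mt-Nd4l and mt-Nd4 sit on 1 messenger and overlap by 7 bases. The ratio of their rows was 0.0569 to 0.148 in 10 libraries and 0.454 and 0.707 in the 1 h libraries numbered 2; with Gm10222 added to mt-Nd4l it was 0.694 to 1.07 in the 10 and 2.09 and 2.35 in those 2.

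mt-Cytb, the mitochondrially encoded subunit of complex III, had a median of 6010 TPM (3131 to 10270). Of the core subunits of cytochrome c oxidase (complex IV), mt-Co1 had a median of 7682 TPM (5801 to 11057), mt-Co2 of 1225 (807 to 4901) and mt-Co3 of 737 (408 to 3377). As deposited, mt-Co1 was above mt-Co2 and mt-Co3 in every library. With copies added, mt-Co2 read 7449 to 14693 TPM, mt-Co1 6287 to 11959 and mt-Co3 2311 to 7563. With copies added mt-Co2 was above mt-Co1 in 12 of 12 libraries, so their order reversed.

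The ATP synthase subunits mt-Atp8 and mt-Atp6 are read from 1 messenger on which their genes overlap by 43 bases. The shared stretch is the end of mt-Atp8 and the start of mt-Atp6.
mt-Atp8 end and mt-Atp6 start: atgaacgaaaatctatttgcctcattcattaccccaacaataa
At 204 bases mt-Atp8 is the shortest of the mitochondrial mRNAs, and it had the highest TPM of all genes in 11 of 12 libraries, from 10795 to 36802 with a median of 17943. mt-Atp6 read 1022 to 2312 TPM, median 1446. The ratio of mt-Atp8 to mt-Atp6 was 7.51 to 32.4 as deposited and 1.43 to 2.97 with Gm10925 added to mt-Atp6. The same pair of subunits thus differed by more or less than 3-fold according to the row that held the reads.

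The rRNAs of the mitochondrial ribosome made up only 0.0983% to 0.169% of TPM in these poly(A)-selected libraries. mt-Rnr1, the small-subunit rRNA, was the steadiest of the 15 tested genes, at 501 to 649 TPM with a median of 589. mt-Rnr2, the large-subunit rRNA, had a similar median of 581 TPM but ran from 378 to 1064. Its 3 highest values were 1064 and 1032 TPM in the 1 h libraries numbered 2 (labelled knockout and wild type) and 926 TPM in the labelled knockout 3 h library 2. The ratio of mt-Rnr2 to mt-Rnr1 was 0.625 to 1.59 in 10 libraries and 1.76 and 1.70 in the wild-type and knockout 1 h libraries numbered 2. On the log2 scale rRNA to mRNA was -6.07 to -5.54 in the 10 and -4.89 and -4.82 in those 2.

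**Figure D1:**
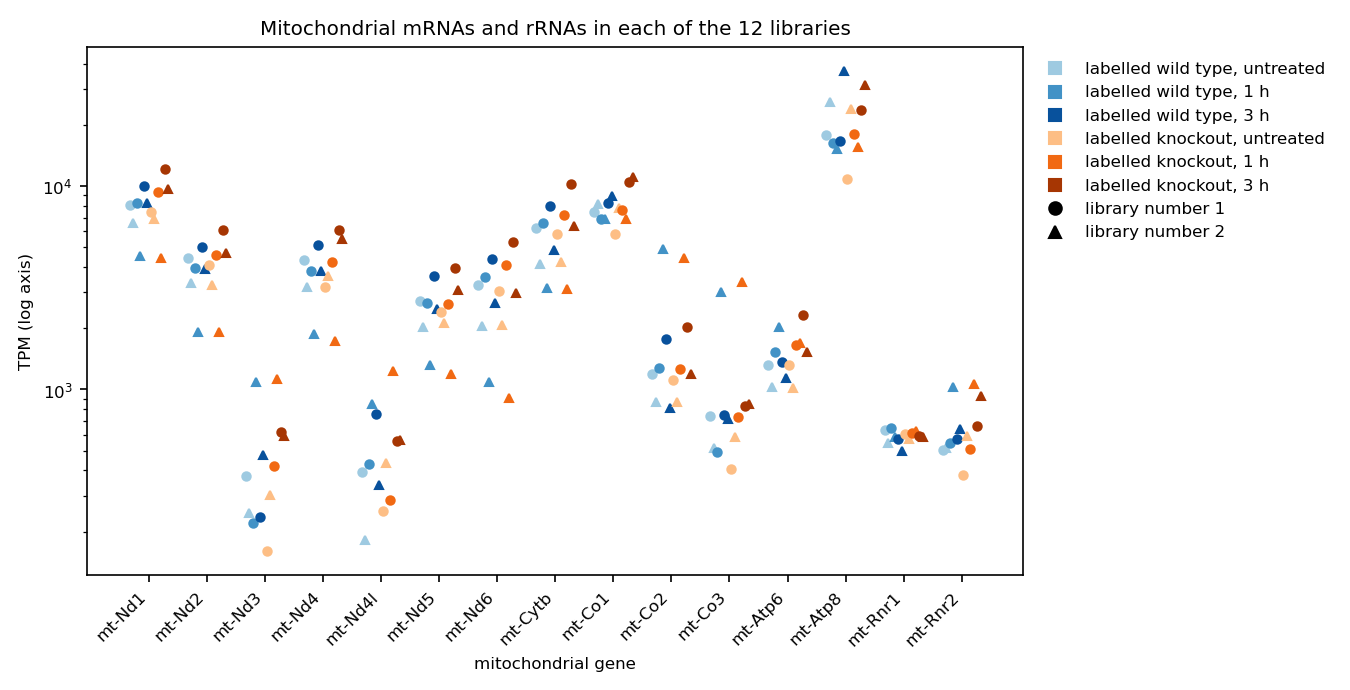
TPM of the 13 mitochondrial mRNAs and 2 rRNAs (x axis) on a log y axis, 1 point per library, coloured by label and time, with circles for library number 1 and triangles for number 2. The 1 h triangles lie above the other libraries for mt-Co2, mt-Co3, mt-Nd3, mt-Nd4l and mt-Rnr2 and below them for mt-Nd1, mt-Nd2, mt-Nd4, mt-Nd5, mt-Nd6 and mt-Cytb, while mt-Rnr1 stays between 501 and 649 TPM.

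How members varied together followed these rows. Over the 12 libraries, mt-Nd1, mt-Nd2, mt-Nd4, mt-Nd5, mt-Nd6 and mt-Cytb had Pearson correlations of 0.90 to 0.98 with each other on the log2 scale. mt-Co2, mt-Co3, mt-Nd3 and mt-Nd4l had correlations of 0.68 to 0.90 with each other, and of -0.73 to -0.20 with the first 6. These sets were chosen after the values were seen, the points share libraries and their scaling, and the correlations are descriptions only.

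The 1 h libraries numbered 2 also stood apart in how TPM was split between a gene and its nuclear copies. In 10 libraries the mt-Co2 row held 6.82% to 15.6% of the TPM that mt-Co2 and its copies took together; in the 1 h libraries numbered 2 it held 58.3% (labelled wild type) and 54.5% (labelled knockout). For mt-Co3 the shares were 9.81% to 20.5% in the 10 and 52.4% and 57.4% in those 2. For mt-Atp6 they were 9.18% to 17.4% against 31.2% and 26.3%. The same 2 libraries lay outside the other 10 for mt-Nd3 (8.80% to 18.0% against 26.4% and 26.6%) and for mt-Nd4l (5.31% to 15.1% against 21.7% and 30.1%). The partial copy of mt-Co1, Gm29216, read 484 to 2150 TPM in the 10 and 65.9 and 59.5 TPM in those 2, so that mt-Co1 held 77.9% to 94.3% of its sum in the 10 and 99.0% and 99.1% in those 2. Gm28439 differed by library number: mt-Nd4 held 93.8% to 97.5% of its sum in the libraries numbered 1 and 80.9% to 89.5% in those numbered 2.

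**Figure D2:**
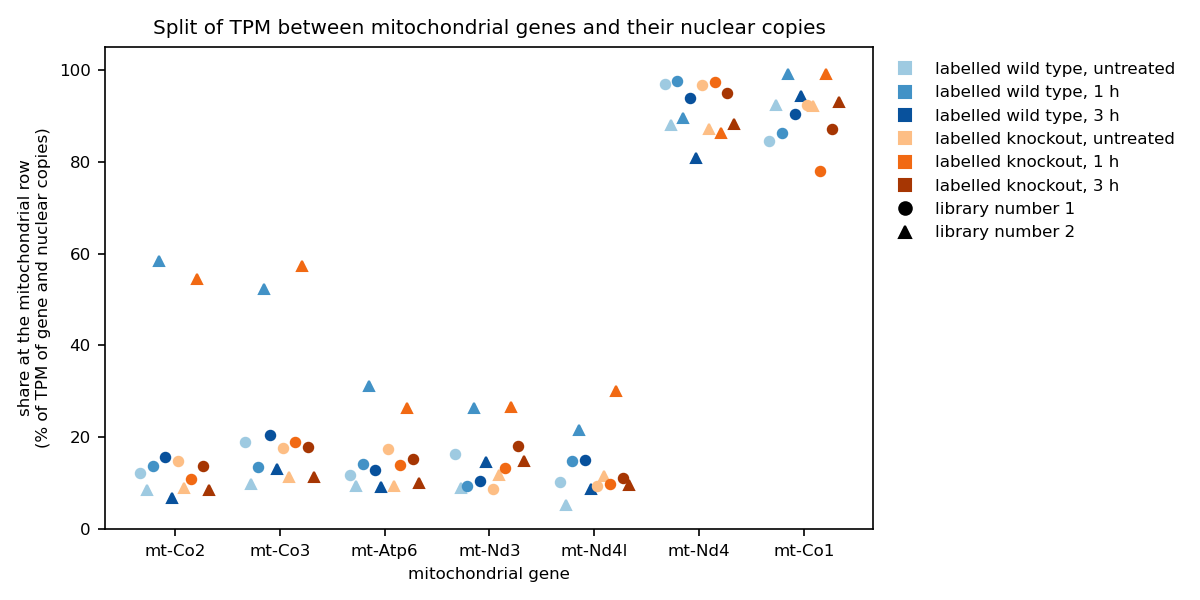
Share of the TPM of a gene and its nuclear copies that the mitochondrial row holds (y axis, %), for the 7 genes with copies (x axis), 1 point per library. The 1 h libraries numbered 2 (triangles in mid-blue and mid-orange) lie above the other 10 for mt-Co2, mt-Co3, mt-Atp6, mt-Nd3, mt-Nd4l and mt-Co1.

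At 1 h after irradiation no mitochondrial gene passed the test against the untreated embryos, under either label. The test was limma's moderated test on log2(TPM + 1) with Benjamini-Hochberg adjustment over 15535 genes, and an adjusted p below 0.05 counted as a call. Under the wild-type label 0 of 15 members were called, beside 0.0% of all genes (0 of 15 and 618 of 15535 had an unadjusted p below 0.05). Under the knockout label 0 of 15 were called, beside 0.103% of all genes, and 0 of 15, against 1407 of 15535 genes, had an unadjusted p below 0.05. For the mean of both labels, which uses the same libraries, 0 of 15 were called beside 0.219% of all genes; 2 of 15, against 1976 of 15535 genes, had an unadjusted p below 0.05.

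The largest values at 1 h were those of mt-Co3, mt-Co2, mt-Nd3 and mt-Nd4l, which have nuclear copies, and they shrank without the libraries numbered 2. mt-Co2, an electron-accepting subunit of cytochrome c oxidase, read 1194 and 867 TPM in untreated and 1269 and 4901 TPM in 1 h labelled wild-type embryos. It read 1109 and 870 TPM in untreated and 1257 and 4425 TPM in 1 h labelled knockout embryos. Neither label's groups overlapped, but both high values are those of the libraries numbered 2. For the mean of both labels mt-Co2 had a log2 fold change of 1.28 (SE 0.534, adjusted p 0.37), which became 0.00 with its copies added and 0.34 without the 1 h libraries numbered 2. The summed level of mt-Co2 and its copies in those libraries, 8408 and 8126 TPM, lay inside the range of the other 10. In the same comparison mt-Co3 went from 1.33 (SE 0.605, adjusted p 0.405) to 0.24 with its copy added and 0.13 without those libraries. mt-Nd4l went from 1.01 to 0.00 and 0.24, mt-Nd3 from 1.16 to 0.52 and 0.23, and mt-Atp6 from 0.57 to -0.22 with its copies but only to 0.45 without those libraries. mt-Nd4 and mt-Co1, which have partial copies, had -0.40 and -0.04 as deposited. mt-Rnr2, which has no such copy, had 0.60 (SE 0.295, adjusted p 0.443) and 0.11 without those libraries. With both the copies added and library number as a term, 1 member was called at 1 h, mt-Nd3 (limma adjusted p 0.0493), beside 4.21% of all genes.

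**Figure D3:**
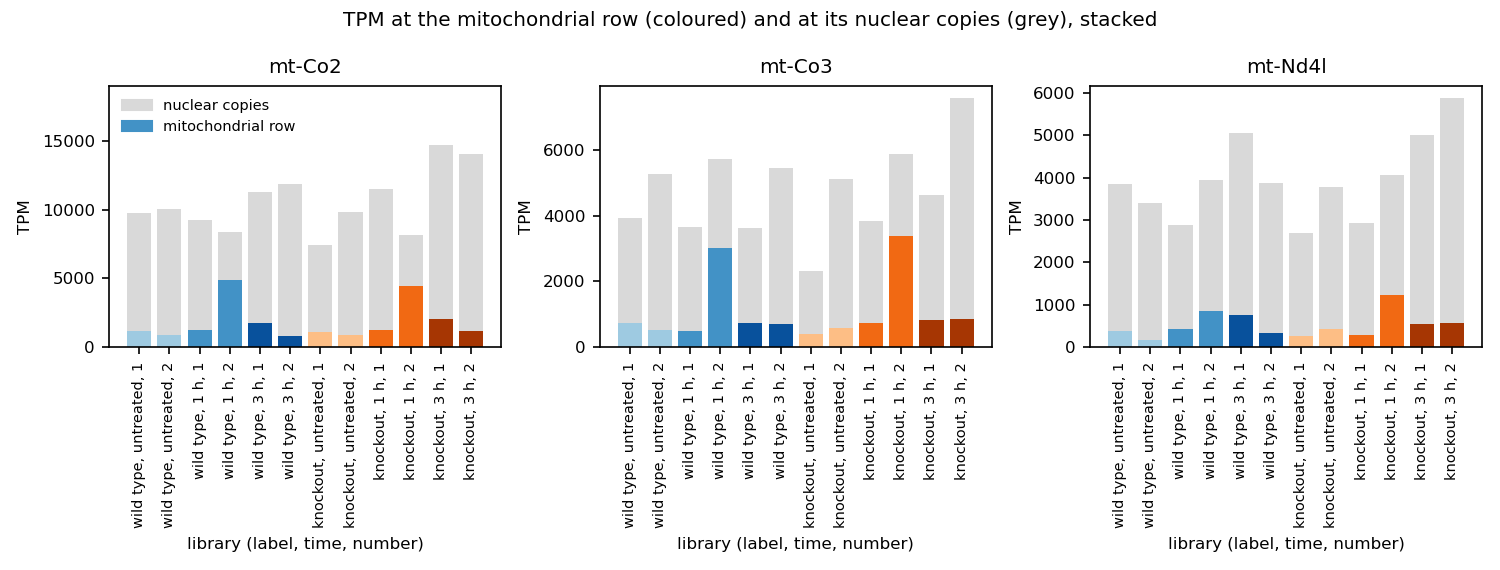
Stacked TPM of mt-Co2, mt-Co3 and mt-Nd4l (coloured) and of their nuclear copies (grey) in each library (x axis: label, time and library number; y axis: TPM, starting at 0). The coloured part is tallest in the 1 h libraries numbered 2, whereas the height of the whole bar there, 8408 and 8126 TPM for mt-Co2, is within the range of the other libraries.

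At 3 h after irradiation the mitochondrial mRNAs took a larger share of TPM than in untreated embryos. The share was 5.84% and 5.82% in untreated and 6.59% and 7.52% in 3 h labelled wild-type embryos. It was 4.58% and 5.71% in untreated and 8.42% and 7.94% in 3 h labelled knockout embryos. All 4 libraries of 3 h were above all 4 untreated ones. As deposited, the full separation depended on mt-Atp8. That row read 17878 and 25853 TPM in the untreated and 16661 and 36802 TPM in the 3 h labelled wild-type libraries. With it left out, 3 h labelled wild-type library 2 would lie below untreated labelled wild-type library 1. Over both labels the mean was 7.62% ± 0.778 (SD, n = 4) at 3 h and 5.49% ± 0.606 (SD, n = 4) untreated, a difference of 2.13 percentage points (exact two-sided permutation test p = 0.0286, the smallest that 70 arrangements allow). After adjustment over the 16 tests of shares and ratios the p was 0.25, which does not pass. Within the libraries numbered 1 the difference was 2.29 points and within those numbered 2 it was 1.97. With nuclear copies added the shares again did not overlap, with the highest untreated value at 8.89%, and the difference was 3.07 points (exact permutation p = 0.0286). At 1 h the 4 shares lay between 4.77% and 6.20%, a difference of -0.147 points from untreated (exact permutation p = 0.8) that became 0.413 without the libraries numbered 2.

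Marker genes of several cell types also differed in the 3 h labelled knockout libraries, which had the highest shares. The 8 primitive red-cell markers summed to 16152 and 14947 TPM in the 3 h labelled knockout libraries, against 2326 to 13162 in the other 10. The 10 cardiac markers summed to 3854 and 3483 TPM there, against 1476 to 2630. The 4 decidual markers, from the maternal lining of the uterus, summed to 76.7 and 88.7 TPM against 26.8 to 40.3, with the defining markers Prl8a2 and Prap1 at 0 in every library. The 6 trophoblast markers summed to 4.20 and 2.66 TPM against 0.15 to 0.86, with Tpbpa and Psg21 at 0 in every library. The 4 skeletal muscle precursor markers summed to 70.8 and 67.8 TPM against 31.5 to 38.6. The 10 yolk sac markers overlapped, at 191 and 497 TPM against 28.2 to 261. The 4 neural progenitor markers were lower there, 112 and 107 TPM against 178 to 270. So were the 4 neuron markers, 39.7 and 35.6 TPM against 40.9 to 162. In the labelled wild-type libraries the red-cell markers summed to 5389 and 8682 TPM at 3 h and to 7515 and 7832 TPM untreated. The part of these cells in the mitochondrial result was not tested.

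**Figure D4:**
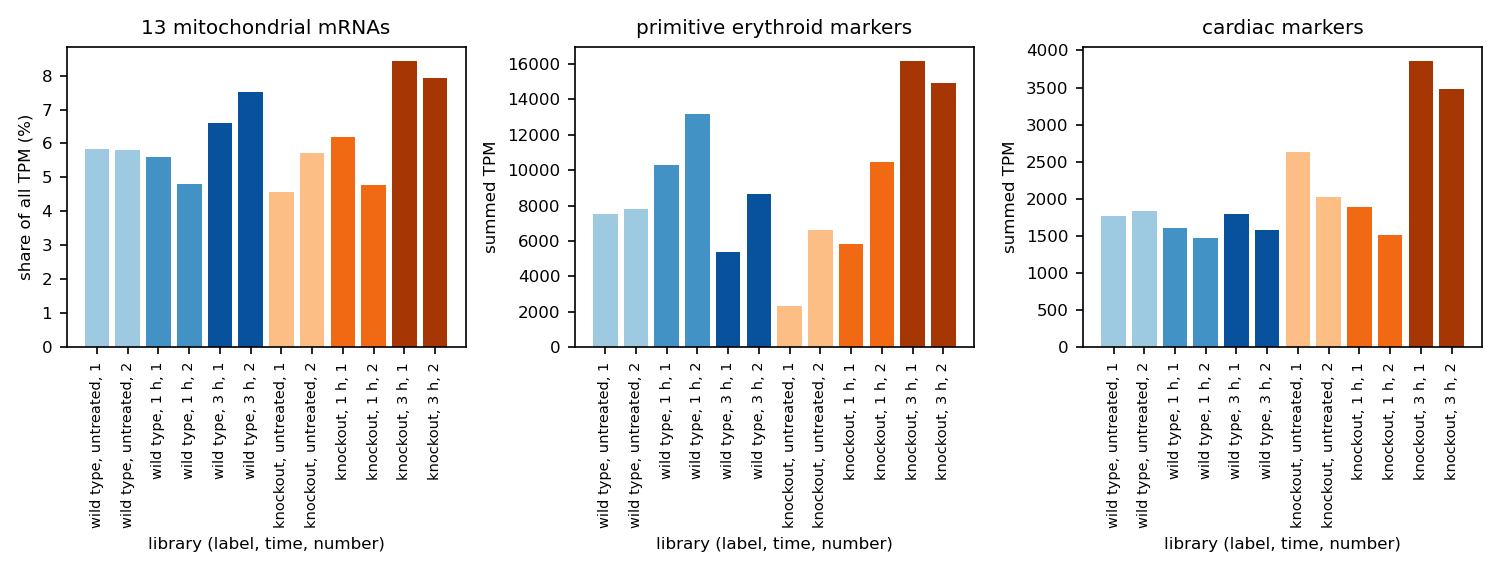
Share of all TPM held by the 13 mitochondrial mRNAs (left, %), and summed TPM of primitive red-cell markers (middle) and of cardiac markers (right), 1 bar per library in the same order on each x axis, y axes starting at 0. The 3 h labelled knockout libraries are highest in all 3 panels, at 8.42% and 7.94% for the mitochondrial mRNAs, and the 3 h labelled wild-type libraries are the next highest in the left panel only.

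Gene by gene, the 3 h values were higher than untreated under the knockout label for nearly all members, but none was called when each library counted separately. mt-Co1, the catalytic core of cytochrome c oxidase, read 5801 and 7777 TPM untreated and 10418 and 11057 TPM at 3 h. The groups did not overlap, and the log2 fold change was 0.68 (SE 0.263, limma adjusted p 0.148). mt-Atp6, part of the proton channel of ATP synthase, read 1314 and 1022 TPM untreated and 2312 and 1534 TPM at 3 h, also without overlap, with a log2 fold change of 0.70 (SE 0.276, adjusted p 0.152). mt-Cytb read 5785 and 4225 TPM untreated and 10270 and 6349 TPM at 3 h, with a log2 fold change of 0.71 (SE 0.537, adjusted p 0.495). The largest value was that of mt-Nd3, 161 and 304 TPM untreated and 617 and 589 TPM at 3 h, with a log2 fold change of 1.44 (SE 0.758, adjusted p 0.289). Adding its copy Gm28438 lowered this to 0.77. mt-Nd6, the only mRNA of the light strand, read 3045 and 2083 TPM untreated and 5295 and 2975 TPM at 3 h; the groups overlapped and the log2 fold change was 0.66 (SE 0.768, adjusted p 0.694). The others were mt-Nd1 at 0.59, mt-Nd2 at 0.55, mt-Nd4 at 0.76, mt-Nd4l at 0.75, mt-Nd5 at 0.62, mt-Co2 at 0.66, mt-Co3 at 0.78 and mt-Atp8 at 0.76. Of the rRNAs, mt-Rnr2 had 0.73 (SE 0.417) and mt-Rnr1, at 605 and 573 TPM untreated and 592 and 584 TPM at 3 h, had -0.00 (SE 0.161). Leaving out 1 library moved several of these values by more than 1.5 times. Without the untreated library 1, mt-Atp8 had 0.19, mt-Nd4l 0.36 and mt-Rnr2 0.41; without the 3 h library 1, mt-Nd6 had 0.24, mt-Co2 0.28, mt-Cytb 0.36 and mt-Atp6 0.40. In the other direction, mt-Atp8 had 1.34 and mt-Nd4l 1.14 without the untreated library 2, and mt-Nd6 had 1.07 and mt-Cytb 1.05 without the 3 h library 2. Quantile normalization lowered mt-Nd1 to 0.12 and mt-Co1 to 0.28.

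Of the 15 members, 0 were called in this comparison, beside 12.1% of all genes (1883 of 15535), and 2 of 15, mt-Co1 and mt-Atp6, had an unadjusted p below 0.05, against 25.2% of all genes. The log2 fold change was above 0 in 14 of 15 members with a median of 0.70, and the median over all genes was -0.12. Both 3 h libraries were above both untreated ones for 12 of 15 members, beside 19.0% of all genes. Across the 13 mRNAs the values spanned 0.55 to 1.44, and with the nuclear copies added 0.55 to 0.78. With library number as a term, 3 members were called higher: mt-Co1 (adjusted p 0.0235), mt-Cytb (0.0368) and mt-Atp6 (0.0494), beside 29.2% of all genes called and 11.1% called higher. With both that term and the copies added, 6 were called higher: mt-Co1, mt-Co2, mt-Co3, mt-Nd3, mt-Cytb and mt-Nd4l. In that fit 29.3% of all genes were called in either direction. In the fit with library number but without the copies added, 11.1% were called higher. Without a trend of the spread with expression, mt-Co1 alone was called (limma adjusted p 0.0415), and the share of all genes called in that fit is not given here. Scaling by median-of-ratios size factors moved the median of all genes from -0.12 to -0.02 and that for library number from 0.14 to 0.01; mt-Rnr1 then had 0.11.

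Under the wild-type label 0 of 15 members were called at 3 h, beside 0.0% of all genes, and 0 of 15, against 524 of 15535 genes, had an unadjusted p below 0.05. The values of the 13 mRNAs ran from 0.10 to 0.93 with a median of 0.24, beside a median of 0.02 over all genes. mt-Co1 read 7481 and 8177 TPM untreated and 8274 and 8921 TPM at 3 h, which do not overlap; such separation upward held for 3 of 15 members (mt-Rnr2, mt-Nd1 and mt-Co1) and for 17.3% of all genes. The difference between labels in the 3 h response was above 0 for 14 of 15 members with a median of 0.43, and 0 of 15 were called, beside 3.45% of all genes; 0 of 15, against 2402 of 15535 genes, had an unadjusted p below 0.05. For the mean of both labels 0 of 15 were called at 3 h, beside 6.37% of all genes, 0 of 15, against 2945 of 15535 genes, had an unadjusted p below 0.05, and with library number as a term 1 was called (mt-Cytb, limma adjusted p 0.0492), beside 19.2% of all genes. A difference in the 3 h response between the labels was thus not detected by this test.

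**Figure D5:**
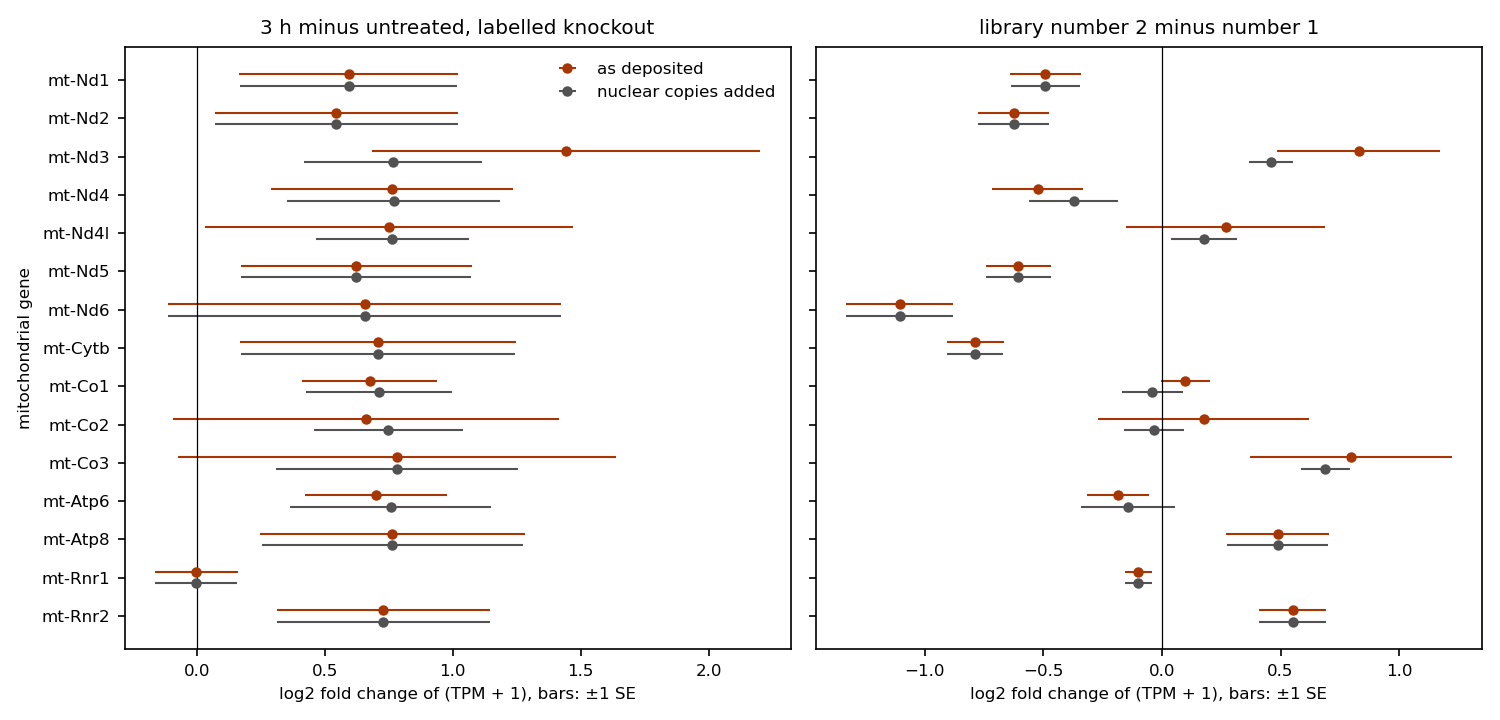
Log2 fold changes of TPM + 1 (x axes, bars show 1 SE) for the 15 tested mitochondrial genes (y axis), for 3 h minus untreated under the knockout label (left) and library number 2 minus number 1 over all groups (right), as deposited and with nuclear copies added. On the left all values except that of mt-Rnr1 lie between 0.55 and 1.44; on the right mt-Nd6 is lowest at -1.11.

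Between the labels, no member was called at any time. Untreated, 0 of 15 were called, beside 0.0193% of all genes, and 0 of 15, against 186 of 15535 genes, had an unadjusted p below 0.05. At 1 h 0 of 15 were called, beside 0.0386%, with 0 of 15 and 210 of 15535 genes at an unadjusted p below 0.05. At 3 h all 15 members were higher under the knockout label, with a median log2 difference of 0.27 against -0.16 over all genes. None of the 15 was called, beside 10.3% of all genes, and 0 of 15, against 3734 of 15535 genes, had an unadjusted p below 0.05. Both knockout libraries were above both wild-type ones for 7 of 15 members, beside 18.1% of all genes. The largest difference was that of mt-Nd3, 0.84 (SE 0.758, adjusted p 0.574), which was 0.44 with its copy added.

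The nuclear genes that work with the mitochondrial genome mostly did not pass the test at 3 h under the knockout label. Their counts stand beside 6.25% of all genes called higher and 5.87% called lower, or 11.1% and 18.1% with library number as a term. None was called among the tested nuclear subunits of complex I (0 of 37, median log2 fold change 0.07), complex II (0 of 4, 0.02), complex III (0 of 9, 0.08), complex IV (0 of 10, 0.22) or ATP synthase (0 of 15, 0.16). With library number as a term 1 of the 37 complex I genes was called higher and the other counts stayed at 0. The subunits with the smallest p were Ndufb6 of complex I, at 68.3 and 53.1 TPM untreated and 106 and 92.6 TPM at 3 h, and Cox4i1 of complex IV, at 660 and 642 TPM untreated and 843 and 731 TPM at 3 h. Their medians lay below those of their mitochondrially encoded partners, which were 0.66 for complex I, 0.68 for complex IV and 0.73 for ATP synthase; this difference was not tested.

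Among genes that maintain and transcribe mitochondrial DNA 0 of 19 were called (median -0.08), and among those that process and stabilize its RNA 0 of 29 (median -0.34). With library number as a term 1 of 19 rose and 3 fell in the first list, and 12 of 29 fell and none rose in the second; 3 of 19 lower is near the share of all genes. Grsf1, an RNA-binding protein of the mitochondrial RNA granules, read 180 and 141 TPM untreated and 103 and 82.6 TPM at 3 h, a log2 fold change of -0.78 (SE 0.265) that was not called (limma adjusted p 0.1). Mitochondrial ribosomal proteins had 0 of 78 called (median -0.16), and 3 rose and 11 fell with that term.

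Regulators of mitochondrial biogenesis changed in both directions, with 2 of 8 called higher and 2 called lower (2 and 4 with library number as a term). Beside these and the next lists stand 6.25% of all genes called higher and 5.87% called lower, or 11.1% and 18.1% with that term. Pprc1, a coactivator of the PGC-1 family, fell from 66.8 and 63.7 TPM to 24.6 and 29.0 TPM, a log2 fold change of -1.26 (SE 0.151, limma adjusted p 0.0011). Nrf1, a transcription factor for respiratory genes, fell from 57.2 and 67.1 TPM to 25.0 and 30.1 TPM (-1.15, adjusted p 0.0081). Gabpb1, a subunit of the GA-binding protein, rose from 63.8 and 62.7 TPM to 99.4 and 96.6 TPM (0.62, adjusted p 0.0243), and the nuclear receptor Esrra, named only to complete the count after its value was seen, was the other that rose. Of 12 mitochondrial stress-response genes 1 was called (2 higher and 3 lower with that term), the secreted factor Gdf15, which was at 0 in both untreated libraries and at 1.13 and 1.66 TPM at 3 h. Those 3 h values lie near the floor and by themselves meet the filter of at least 1 TPM in at least 2 libraries. The call of Gdf15 is therefore not taken as support for a change in this list. Of 10 genes that link p53 and mitochondria 2 were called (3 with that term), both higher: Aldh4a1, a proline-breakdown enzyme, from 9.67 and 12.1 TPM to 51.6 and 65.5 TPM, and Fdxr, ferredoxin reductase, from 5.90 and 8.37 TPM to 18.0 and 24.2 TPM. The labelled wild-type libraries at 3 h read 9.56 and 13.2 TPM for Aldh4a1 and 7.02 and 7.26 TPM for Fdxr, and the untreated ones 7.31 and 9.01 TPM for Fdxr. Both genes are known to be activated by p53. Under the wild-type label 0 of the 10 were called, but so were 0.0% of all genes, so that count says nothing about this list. The difference between labels in the 3 h response was called for 2 of 10, beside 3.45% of all genes. Values higher at 3 h under the knockout label are, like those of Trp53, why genotype is given as a label. Their cause was not tested.

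A further list held RNAs that lack a poly(A) tail or stay in the nucleus. It mixes both kinds, so it is no measure of how selective the libraries were. Of its 5 tested genes 1 was called at 3 h under the knockout label, beside 12.1% of all genes. Rpph1, the RNA of nuclear RNase P, rose from 15.2 and 27.4 TPM to 88.4 and 89.2 TPM, by 2.06 on the log2 scale (limma adjusted p 0.0024). The whole list summed to 258 and 215 TPM at 3 h and to 113 and 121 TPM untreated under the knockout label, and to between 129 and 264 TPM in the other libraries. Its part in the mitochondrial result was not tested.

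The factor with called mitochondrial genes in every setting was library number, which was not particular to them. Comparing number 2 with number 1 across the 6 groups, 6 of 15 members were called, near the 42.9% of all genes called. Of the 15 members, 5 were lower and 1 was higher, beside 11.5% of all genes called lower and 31.4% called higher. mt-Nd6 read 3280, 3566, 4367, 3045, 4075 and 5295 TPM in the libraries numbered 1 (wild type untreated, 1 h and 3 h, then knockout) and 2060, 1091, 2657, 2083, 913 and 2975 TPM in those numbered 2. Number 2 was lower in 6 of 6 groups, by a log2 fold change of -1.11 (SE 0.225, limma adjusted p 0.0063). mt-Cytb had -0.79 (SE 0.12, adjusted p 0.0019), mt-Nd2 -0.63 (adjusted p 0.0124), mt-Nd5 -0.61 (adjusted p 0.0098) and mt-Nd1 -0.49 (adjusted p 0.0302), each lower in 6 of 6 groups. The mt-Nd1 call held in 14 of 22 alternatives: it was lost without the filter (adjusted p 0.177), with quantile normalization, and without any 1 of the 1 h libraries or of the 3 h labelled knockout libraries (adjusted p up to 0.0866). mt-Cytb was lost with quantile normalization, and mt-Nd2 with it and without the filter. mt-Rnr2 was higher in 6 of 6, by 0.55 (SE 0.14, adjusted p 0.0156). Without the 1 h libraries numbered 2 the values were -0.69 for mt-Nd6, -0.61 for mt-Cytb, -0.36 for mt-Nd2, -0.37 for mt-Nd5, -0.25 for mt-Nd1 and 0.33 for mt-Rnr2, and all 6 were still called. In that fit mt-Co2 (-0.68), mt-Atp6 (-0.39) and mt-Atp8 (0.81) were called as well, 9 of 15 members beside 38.3% of all genes. Consistency over all 6 groups held for 5 members downward, beside 10.8% of all genes, and for 1 upward, beside 30.4%.

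Copies mattered here too. mt-Co3 had 0.79 (SE 0.426, adjusted p 0.167) and mt-Nd3 0.83 (SE 0.343, adjusted p 0.0858) as deposited, and neither was called. With copies added they had 0.69 (SE 0.104, adjusted p 0.0019) and 0.46 (SE 0.094, adjusted p 0.0064), higher in 6 of 6 groups. In that fit 42.9% of all genes were called. Higher in all 6 groups were 3 of 15 members (mt-Rnr2, mt-Co3 and mt-Nd3), beside 30.4% of all genes. The summed mt-Co3 level, for instance, read 3913, 3660, 3638, 2311, 3847 and 4629 TPM in the libraries numbered 1 and 5272, 5734, 5456, 5113, 5889 and 7563 TPM in those numbered 2, in the same order of groups. All libraries numbered 2 were above all those numbered 1.

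The log2 ratio of mt-Nd6 to the summed other 12 mRNAs was -4.07 to -3.81 in the libraries numbered 1 and -5.68 to -4.68 in those numbered 2, with no overlap. The summed 12 are led by mt-Atp8, which had 0.49 for library number, while heavy-strand mt-Cytb, mt-Nd2, mt-Nd5, mt-Nd4 (-0.52) and mt-Nd1 were lower along with mt-Nd6, so the ratio does not separate the strands. The mean difference was -1.12 (lower in 6 of 6 groups; exact two-sided permutation test within groups p = 0.0312, the smallest that 64 arrangements allow, 0.25 after adjustment over 16 tests, which does not pass). mt-Nd6 and mt-Nd5 overlap by 14 bases on opposite strands, and no source used here says whether counting used the strand, so reads of this stretch cannot be assigned. Both strands are transcribed into long precursors, so without use of the strand the whole mt-Nd6 row could also hold heavy-strand RNA. The TPM ratio of mt-Nd6 to mt-Nd5 was 0.764 to 1.56 over the 12 libraries, and which strand the row reflects was not tested. Values of the log2 ratio of mt-Nd6 to the other 12 mRNAs overlapped between labels and between times. That log2 ratio differed by 0.02 between labels (exact permutation p = 0.898) and by 0.05 between 3 h and untreated (exact permutation p = 0.829).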

How the data were processed

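Poly(A)-selected RNA of whole mouse embryos was sequenced in 12 libraries. The TPM values are as deposited by the authors, and each library's column sums to between 999999 and 1000001. Per the submitters' processing notes, RSEM 1.3.3 and the aligner STAR 2.7.3a were among the tools, besides DESeq2 1.42.1, HTSeq 0.12.3 and R 4.3.3; what each was used for is not given there. Gene identifiers were matched to symbols of GENCODE release M21, and 52093 of 53647 (97.1%) matched.

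The 15535 genes that reached a TPM of 1 in 2 or more libraries were analysed on log2(TPM + 1) with limma 3.58.1 in R 4.3.3, with 6 group means, a trend of the spread with expression, and Benjamini-Hochberg adjustment over all tested genes. The pseudocount of 1 understates fold changes of low genes. Shares and ratios were compared by exact permutation tests. Nuclear copies were found with BLAST 2.17.0 (at least 90% identity over at least 100 bases). The remaining work used Python 3.11.15. The members and gene lists were chosen with earlier results of these data known. From each nuclear list up to 3 called genes with the smallest p were named, or the 2 with the smallest p where none was called. The most alike genes were the 10 with the highest and the 5 with the lowest correlation, leaving out clone-like names.

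Same-numbered libraries deviated together in all 15 pairs of groups (r 0.327 to 0.796), so the numbers were taken to pair the libraries. The main fit and the tests of times have no term for them; the fit with that term is an alternative, printed where it changes a call. Alternatives were library number as a term, other scalings, pseudocounts and filters, and leaving out each library; adding nuclear copies and leaving out the 1 h libraries numbered 2 were chosen after seeing the data. On simulated data for the 3 h knockout comparison (15535 genes) the fit called 76 of 100 genes that were given a 4-fold change, 27 of 100 given a 2-fold change, and 10 that were given none. The simulated noise was independent between libraries and lacked the shared deviation of same-numbered libraries, so these rates may differ in the data.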

Additional observations from a re-analysis of the deposited data

How the results depend on the processing

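Of 1509 recomputed values for 70 results, 1286 kept their direction and side of the threshold and 38 reversed; where a value moved, the cause was not tested. The replicate block (library number as a term) gave 3 called members at 3 h under the knockout label in place of 0, beside 29.2% of all genes. Nuclear copies added with the block gave 6, beside 29.3%. No trend of the spread gave 1, and the share of all genes in that fit is not given here. For the mean of both labels at 3 h the block gave 1 and copies with the block 2, each beside 19.2% of all genes. At 1 h copies with the block gave 1, beside 4.21%. Over all genes the block raised the calls at 3 h under the knockout label from 1883 to 4534 (466 to 4543 over all alternatives), for the mean of both labels from 989 to 2988 and between labels at 3 h from 1603 to 4371; other alternatives gave 0 to 142 at 1 h under the knockout label (16), 0 to 653 for the mean (34), 0 to 24 at 3 h under the wild-type label (0) and 150 to 2079 for the difference between labels (536). For library number, 4 to 9 members were called in place of 6. Of single genes, mt-Rnr1 at 3 h under the knockout label reversed to 0.11 with size factors and 0.045 with quantile normalization or with TPM rescaled without the 37 genes, and ran from -0.042 to 0.038 when 1 library was left out. With copies added mt-Atp6 at 1 h was -0.22, with or without the block. Without both 1 h libraries numbered 2, mt-Co3 for library number was -0.0085, and with copies added as well mt-Co3 at 1 h was -0.075 and mt-Nd4l -0.22.

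For shares and ratios the threshold was an unadjusted exact permutation p of 0.05, since no adjusted p was below 0.25. The mRNA share at 1 h became 0.0689 points without ribosomal protein genes, 0.413 without both 1 h libraries numbered 2, and -0.448 to 0.0450 leaving out 1 library. At 3 h it was 1.83 to 2.47 leaving out 1 library; without any 1 of the 4 untreated libraries the exact p was 0.0571, above the smallest that 4 against 3 allows, so the result did not pass. For library number it was 0.0427, 0.387 and -0.363 to 0.148 under the same 3 changes. The rRNA share leaving out 1 library was 0.0226 to 0.0415 points at 1 h and -0.00235 to 0.0166 between labels. The log2 rRNA to mRNA ratio at 1 h was -0.015 without both 1 h libraries numbered 2, -0.055 within number 1 and 0.84 within number 2; at 3 h it was -0.33 to -0.21 leaving out 1 library. Between labels it was -0.033 as a mean of logs, -0.011 without those libraries and -0.12 to 0.20 leaving out 1, and for library number 0.35 as a mean of logs. The log2 mt-Nd6 ratio was 0.49 at 1 h without those libraries, -0.11 to 0.23 at 3 h and -0.29 to 0.33 between labels leaving out 1, and for library number -0.84 without those libraries and -1.21 to -0.98 leaving out 1. With fewer than 6 pairs that test cannot reach 0.05. TPM keeps no depth, so the counting error of low rows is unknown.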

Other observations

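By correlation over the 12 libraries with the log2 summed TPM of the 13 mitochondrial mRNAs, the named nuclear genes most like them were Lrpap1, a chaperone of lipoprotein receptors (Pearson r 0.91), Morc4, Zranb1, Col6a1, Runx1, Capn1, Muc13, Epb41l4b, Prpf38a and Rpph1 (0.87). Lrpap1 read 34.5 and 39.8 TPM in untreated and 47.4 and 52.5 TPM in 3 h labelled knockout embryos, and 36.3 and 38.0 TPM in untreated and 46.4 and 45.9 TPM in 3 h labelled wild-type embryos. The 5 most unlike were Bub1b, a kinase of the mitotic checkpoint (r -0.96), Dus1l, Shcbp1, Snn and Creb3l4. Bub1b read 108 and 98.7 TPM untreated and 46.9 and 46.2 TPM at 3 h under the knockout label, and 94.4 and 98.9 TPM untreated and 61.7 and 58.7 TPM at 3 h under the wild-type label. These correlations describe the libraries; the points share their scaling, and genes were picked from 15535 by the size of r.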
